A study of Mus musculus with 6 samples.

Results

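The expression of 31 genes of cholesterol synthesis, uptake and SREBP control was examined in N2a cells upon knockdown of NPM1. The genes are 31 of the 26656 genes listed, and they were matched by symbol. They were selected on the comparison described here, with its values known, so their differences between conditions are given as a description. Standard errors come from the moderated fit described below, which sets a lower limit on the variance within groups. It also draws the variances to a trend over all genes, and the standard errors followed that trend. They are therefore not the observed spread of a gene between libraries. Where the number of these genes past a threshold is given, it stands beside the share of all genes and tests nothing. They fall into 8 enzymes of the mevalonate steps, 11 enzymes of the sterol steps, 5 regulators of SREBP, 3 proteins of sterol uptake and intracellular transport, 2 efflux transporters and 2 linked enzymes.

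N2a (Neuro-2a) is a mouse neuroblastoma line, wild type according to the sample descriptions. Cells were transfected with the plasmid pLKO.1-shNpm1 (NPM1 KD) or with the non-target plasmid pLKO.1-shCTR (CTR), and RNA was taken after 72 h, from 3 libraries per condition. Puromycin at 9.3 µg/ml, from 24 h after transfection onwards, is given for the knockdown experiments, and it is not stated separately for CTR cells. Both conditions used cells of the same line, and a single hairpin against *Npm1* stands for the knockdown. Replicates are called biological in the design, which gives 3 per condition, whereas the treatment protocol gives 2. If some share a culture, the spread behind the p-values is technical at least in part. For the main test that spread comes from all genes and not from the gene tested.

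Cholesterol is built from acetyl-CoA. The mevalonate steps make isoprenoid units and join them to farnesyl diphosphate, and the sterol steps turn farnesyl diphosphate into squalene, lanosterol and finally cholesterol. SREBP transcription factors, encoded by *Srebf1* and *Srebf2*, switch on most of these enzymes. When sterols in the endoplasmic reticulum are low, SCAP carries SREBP to the Golgi, where it is cut and released. When sterols are high, INSIG proteins hold SCAP and SREBP back. Excess cholesterol leaves cells through the transporters ABCA1 and ABCG1.

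The promoters were looked at first, since these letters were not used to select the genes. RefSeq windows (GRCm38.p6) from 250 bases before to 50 bases after the transcription start were at hand for 25 of the 31 genes. *Abcg1*, *Fdft1*, *Fdps*, *Npc1*, *Sqle* and *Stard4* had none in the table. Both strands were searched for TCACNCCAC, the core of a classic SREBP element with N for any base, for CCAAT, the box bound by NF-Y, and for GGGCGG, the GC box bound by Sp1 factors. NF-Y and Sp1 are known partners of SREBP at sterol-regulated promoters. TCACNCCAC was held by 1 of the 25 genes, *Hmgcs1* (4.0%), against 1.4% of all 27025 genes with a window and 1.3% of the 4334 genes with a window that entered the expression test below. CCAAT was held by 20 of 25 (80.0%), against 41.1% of all genes and 43.7% of the tested genes. GGGCGG was held by 21 of 25 (84.0%), against 38.2% of all genes and 72.5% of the tested genes. Of the 32 other pathway genes with a window that are described further below, 1 (3.1%) held TCACNCCAC, 16 CCAAT and 21 (65.6%) GGGCGG. Of 44 CCAAT matches in the cholesterol genes, 26 began within the 100 bases before the start, and no match of one motif overlapped a match of another. A gene with several windows was counted as holding a motif when any window did, which favours such genes. Counted by window, CCAAT was in 21 of the 33 windows of the cholesterol genes (63.6%) against 37.4% of all 32851 windows, and GGGCGG in 25 (75.8%) against 35.7%. These shares were not compared by a test.

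The upstream part of 2 windows is shown, that of *Hmgcs1* because it holds all 3 motifs, and that of *Idi1* because its difference of -1.33 below is at the low end of the range. *Idi1* was chosen after its values had been seen. Matches of the 3 motifs, on either strand, are in capitals (ATTGG is CCAAT and CCGCCC is GGGCGG on the other strand). In *Hmgcs1*, TCACCCCAC begins at position -137 from the start, and CCAAT matches on the other strand begin at -237, -176 and -45. In *Idi1*, CCAAT matches begin at -45 and -14 and a GGGCGG match at -69, all on the other strand. A match is a stretch of letters and not a measured binding site.
Hmgcs1, chr13:119690101-119690350, plus strand: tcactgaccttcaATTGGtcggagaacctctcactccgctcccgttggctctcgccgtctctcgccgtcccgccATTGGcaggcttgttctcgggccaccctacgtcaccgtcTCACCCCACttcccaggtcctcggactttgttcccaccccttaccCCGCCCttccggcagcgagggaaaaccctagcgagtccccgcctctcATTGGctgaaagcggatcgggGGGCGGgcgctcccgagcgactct
Idi1, chr13:8885356-8885605, plus strand: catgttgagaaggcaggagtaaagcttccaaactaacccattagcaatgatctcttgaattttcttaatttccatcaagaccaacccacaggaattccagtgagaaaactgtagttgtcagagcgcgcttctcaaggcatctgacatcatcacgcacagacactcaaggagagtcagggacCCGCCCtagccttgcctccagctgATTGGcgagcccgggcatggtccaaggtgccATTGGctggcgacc

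Expression was deposited by the authors as a regularized log (rlog) value per gene and library, a score on the log2 scale that corrects for library size and pulls genes with few reads towards their own mean. Apart from values between -1 and 1, the values are rounded to whole numbers, so that differences come in steps of 1. *Npm1* itself (ENSMUSG00000057113) was at 10 in each CTR library and at 8 in each NPM1 KD library, a difference of -2 (SE 0.33, n = 3 per group, adjusted p = 3.23e-06 from limma). Genes with a mean rlog of at least log2 of 10 entered limma's moderated test, with a threshold of 0.05 on the adjusted p over all 5752 such genes. Whole reads per library could be worked out in addition for genes with few reads, from the authors' mean normalized counts. The relative depths behind these normalized counts were worked out in the same way. They were 1.24, 1.30 and 1.11 for CTR replicates 1 to 3, and 0.784, 0.833 and 0.961 for the NPM1 KD libraries. Every NPM1 KD library was thus shallower than every CTR library, a difference which both units correct for. Its part in the results was not tested otherwise. In bulk RNA, fewer cells of a type and less RNA per cell cannot be told apart.

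The neuroblastoma markers *Tubb3*, *Stmn2* and *Gap43* stood between 6 and 9 in all libraries, while *Nefl* and *Nefm* were listed at 0. Of 16 such markers, 14 had reads and 10 entered the test. Among these 10, 5 (*Tubb3*, *Stmn2*, *Gap43*, *Chga* and *Chgb*) were lower upon NPM1 KD without overlap of the groups, where 3.41% of all tested genes were. *Chga* (adjusted p = 0.026 from limma) and *Chgb* (adjusted p = 0.0011 from limma) were past the threshold, where 0.417% of all genes were called lower. *Th*, *Dbh* and *Gata3* had low mean normalized counts of 2.43, 3.55 and 7.48. *Phox2a*, with a mean normalized count of 1.42, was higher without overlap. Of 21 markers of fibroblasts, immune cells, glia, endothelium and hepatocytes, 8 had reads, and these summed to 10.8 to 23.4 normalized reads per CTR library and 2.55 to 8.33 per NPM1 KD library. *Col1a2*, *Ptprc*, *Gfap*, *Kdr*, *Cdh5* and *Alb* were listed at 0. The part of these markers in the values below was not tested.

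Most of the measured cholesterol genes were lower upon NPM1 KD, in each of the role groups that entered the test. Of the 31 genes, 24 were high enough for the test, and *Mvk*, *Tm7sf2*, *Nsdhl*, *Hsd17b7*, *Npc1*, *Abca1* and *Abcg1* were not. Among the 24, the difference between the mean rlog values was below 0 in 20, 0 in 4 and above 0 in 0, with a median of -0.67 and a range from -1.33 to 0. Over all 5752 genes the median was 0, and 1574 differences were below and 1416 above it. Of the 24, 2 (*Idi1* and *Fdps*) were lower past the threshold and 0 higher, where 0.417% of all genes were called lower and 0.0695% higher. The 2 became 0 when any 1 of the 6 libraries was left out, where 0.0869% to 0.156% of all genes were called lower. In 11 of the 24 the libraries of the groups did not overlap, all 11 lower, where 3.41% of all genes were separated in this way with lower and 2.19% with higher values. As the genes were selected on this contrast, these counts test nothing, and the shares are given for orientation alone.

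**Figure D1:**
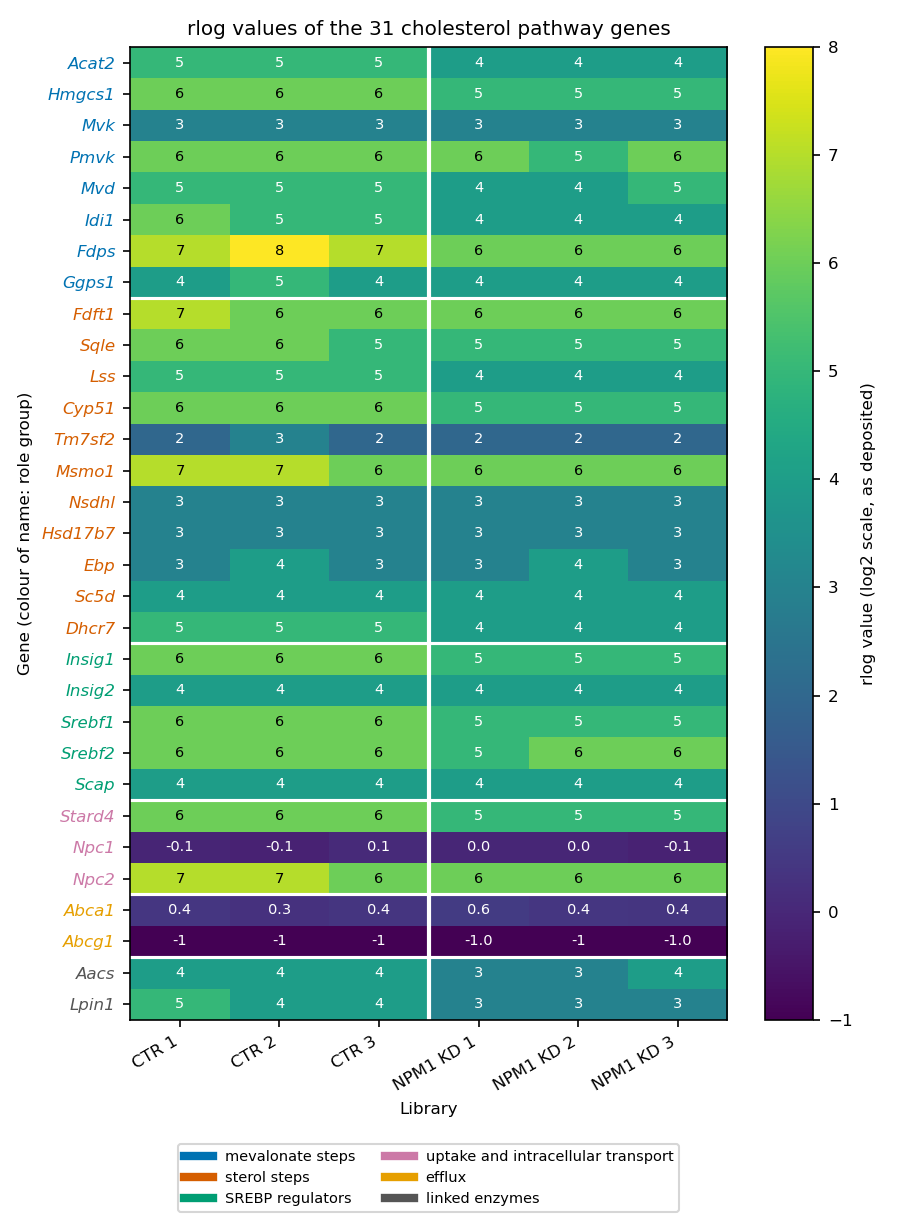
Deposited rlog values (log2 scale, colour and number) of the 31 genes in rows, in the 3 CTR libraries and the 3 NPM1 KD libraries in columns, with the role group in the colour of the gene name. In 11 genes every NPM1 KD library is below every CTR library, and *Abca1*, *Abcg1* and *Npc1* lie near or below 0.

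Within groups the rounded values often coincided, which says little about spread, since steps of 1 on the log2 scale hide it. In 15 of the 24 genes the CTR libraries shared 1 value, in 19 the NPM1 KD libraries did, and in 11 both groups did, against 3840, 3652 and 2609 of all 5752 genes. By reads, which are given below, *Insig2* had 22.6, 14.6 and 9.87 normalized reads in the 3 CTR libraries although its rlog was at 4 in each. Among the 9 genes whose rlog varied within CTR, CTR replicate 3 was at the lowest value in 9 and at the highest in 0. Among the 5 whose rlog varied within NPM1 KD, replicate 3 was at the highest value in 4.

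In the mevalonate steps, 7 of 8 genes entered the test, all 7 with a difference below 0 and a median of -1. *Acat2* (ENSMUSG00000023832), a thiolase that joins acetyl-CoA units, stood at 5 in the 3 CTR libraries and at 4 in the 3 NPM1 KD libraries. *Hmgcs1* (ENSMUSG00000093930), the cytosolic HMG-CoA synthase whose promoter is shown above, stood at 6 in the 3 CTR libraries and at 5 in the 3 NPM1 KD libraries. Both thus stepped down by 1 in every library (SE 0.33 and 0.34, n = 3 per group).

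*Idi1*, the isomerase of the isoprenoid units, was at 6, 5 and 5 in CTR and at 4 in each NPM1 KD library. *Fdps*, which joins the units to farnesyl diphosphate, was at 7, 8 and 7 in CTR and at 6 in each NPM1 KD library. Both had a difference of -1.33 (SE 0.33 for *Idi1* and 0.35 for *Fdps*), with the groups apart. CTR replicate 1 was the highest library for *Idi1* and CTR replicate 2 for *Fdps*. The other 3 tested genes overlapped between the groups. These are *Mvd*, the decarboxylase that yields the first isoprenoid unit, *Pmvk*, a kinase of the route, and *Ggps1*, which makes geranylgeranyl diphosphate for protein prenylation, with differences from -0.67 to -0.33.

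In the sterol steps, 8 of 11 genes entered the test, with a median difference of -0.67 and a range from -1 to 0. *Lss* (lanosterol synthase, which closes the sterol rings) stood at 5 in the 3 CTR libraries and at 4 in the 3 NPM1 KD libraries. *Dhcr7*, the last enzyme of one arm of the route and the one deficient in Smith-Lemli-Opitz syndrome, was at 5 in the 3 CTR and at 4 in the 3 NPM1 KD libraries. *Cyp51*, the lanosterol demethylase, was at 6 in the 3 CTR and at 5 in the 3 NPM1 KD libraries. These 3 genes were the ones of the group whose libraries did not overlap, each with a difference of -1 (SE 0.33, 0.33 and 0.34).

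*Sqle*, the epoxidase that acts on squalene and is a rate-limiting step of the route, was at 6, 6 and 5 in CTR and at 5 in each NPM1 KD library, and CTR replicate 3 therefore met the NPM1 KD value. *Msmo1*, which removes methyl groups from the sterol, behaved alike at 7, 7 and 6 in CTR and 6 in each NPM1 KD library. Differences were -0.67 for both and -0.33 for *Fdft1*, which forms squalene. *Ebp*, an isomerase, and *Sc5d*, a desaturase, both late in the route, had a difference of 0. Enzymes of the same branch hence stood at different steps on this scale, from 1 full step to none.

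**Figure D2:**
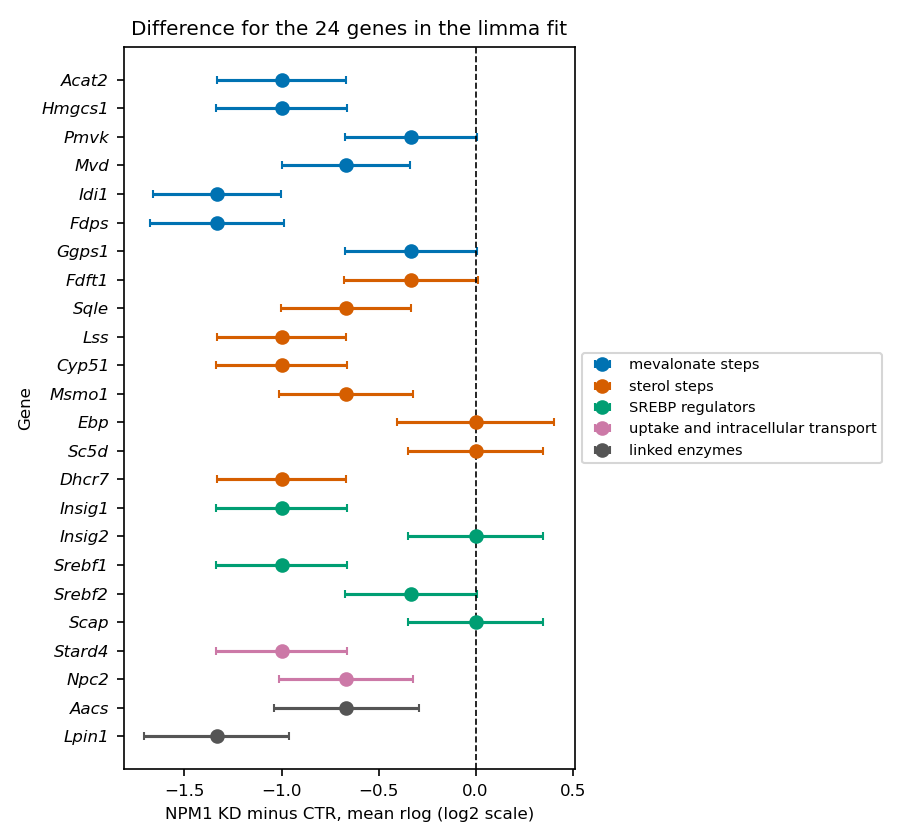
Difference between the mean rlog of the 3 NPM1 KD and the 3 CTR libraries (log2 scale, point) with the standard error from limma (bar) for the 24 genes in the test, coloured by role group. The bars follow the trend over all genes and not the spread of each gene. The dashed line at 0 is also the median of all 5752 tested genes; 20 genes lie below it and 4 on it.

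Among the SREBP regulators, all 5 genes entered the test, with a median difference of -0.33. *Insig1*, which retains SCAP in the endoplasmic reticulum and is itself a classic SREBP target, was at 6 in the 3 CTR and at 5 in the 3 NPM1 KD libraries. *Srebf1* was at 6 in the 3 CTR and at 5 in the 3 NPM1 KD libraries as well. Both had a difference of -1 (SE 0.34, n = 3 per group) without overlap. *Srebf2*, the form of SREBP best known for cholesterol genes, stood at 6 except in NPM1 KD replicate 1, where it was 5. *Scap* and *Insig2*, a second retention protein, stood at 4 in all 6 libraries.

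Of the genes of uptake and intracellular transport, *Stard4*, a carrier that moves cholesterol between membranes, was at 6 in the 3 CTR and at 5 in the 3 NPM1 KD libraries, a difference of -1 (SE 0.34). *Npc2*, which takes cholesterol out of lysosomes, was at 7, 7 and 6 in CTR and at 6 in each NPM1 KD library. *Npc1*, its partner in the lysosomal membrane, had 1, 0 and 3 reads in CTR and 1, 1 and 0 in NPM1 KD, too few for a comparison. The same holds for both efflux transporters. *Abca1* had 2, 0 and 1 reads in CTR and 3, 1 and 1 in NPM1 KD, and *Abcg1* had 0, 1 and 0 reads in CTR and 1, 0 and 1 in NPM1 KD. A difference of these 3 genes was not detectable at this depth.

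The linked enzymes stand beside the route. *Lpin1*, a phosphatidate phosphatase of glycerolipid synthesis, was at 5, 4 and 4 in CTR and at 3 in each NPM1 KD library, a difference of -1.33 (SE 0.37) without overlap. *Aacs*, which activates acetoacetate for lipid synthesis, stood at 4 throughout CTR and at 3, 3 and 4 with NPM1 KD. NPM1 KD replicate 3 therefore met the CTR value of *Aacs*.

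Whole reads gave a finer view of 9 cholesterol genes with mean normalized counts between 2 and 16, for which exactly 1 set of reads per library matched the deposited values. These values come from the same contrast and are likewise a description. *Lpin1* had 51, 28 and 19 reads in CTR but 2, 4 and 3 reads upon NPM1 KD. Divided by the relative depths, this is 26.5 ± 12.8 normalized reads in CTR and 3.49 ± 1.17 in NPM1 KD (SD, n = 3), a ratio of 0.132. On the log2 scale the ratio is -2.92, where the rlog difference was -1.33.

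*Aacs* had 31, 32 and 17 CTR reads and 1, 6 and 9 NPM1 KD reads, or 21.6 ± 5.5 against 5.95 ± 4.19 normalized reads (SD, n = 3) and a ratio of 0.275. By reads its groups did not overlap, unlike its rounded rlog values. *Nsdhl*, a sterol dehydrogenase that works with *Msmo1*, had rlog values of 3 in all 6 libraries. Its reads were 17, 20 and 9 for CTR against 4, 5 and 2 for NPM1 KD, or 12.4 ± 3.82 against 4.4 ± 2.06 normalized reads (SD, n = 3) and a ratio of 0.355. A gene with no rlog difference thus had every NPM1 KD library below every CTR library.

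*Scap*, at 4 in all libraries on the rlog scale, had 22, 29 and 14 reads in CTR and 7, 9 and 9 in NPM1 KD. Its 17.5 ± 4.86 against 9.70 ± 0.981 normalized reads (SD, n = 3) gave a ratio of 0.554, without overlap. *Tm7sf2*, a sterol reductase, had 5, 14 and 8 reads in CTR and 0, 3 and 2 in NPM1 KD, a ratio of 0.259. Its groups were apart by little, with a lowest CTR value of 4.03 and a highest NPM1 KD value of 3.60 normalized reads. Without NPM1 KD replicate 2 the ratio of *Tm7sf2* was 0.142.

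The reads of the remaining 4 genes overlapped between the conditions. *Insig2* had 28, 19 and 11 reads in CTR and 9, 8 and 9 in NPM1 KD (ratio 0.648), and *Ebp* had 11, 29 and 11 against 5, 11 and 9 (ratio 0.706). *Hsd17b7*, a sterol ketone reductase, had 10, 15 and 9 reads against 8, 2 and 9 (ratio 0.795), and *Mvk*, the kinase that acts on mevalonate, had 2, 20 and 10 against 9, 4 and 6 (ratio 0.869). *Mvk* spanned 1.61 to 15.4 normalized reads within CTR alone. Its ratio turned to 1.42 without CTR replicate 2 and to 1.03 without NPM1 KD replicate 2. The ratio of *Ebp* was 1.03 without CTR replicate 2, and that of *Hsd17b7* was 1.06 without NPM1 KD replicate 2. For these 3 genes the direction thus turned when 1 library was left out.

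**Figure D3:**
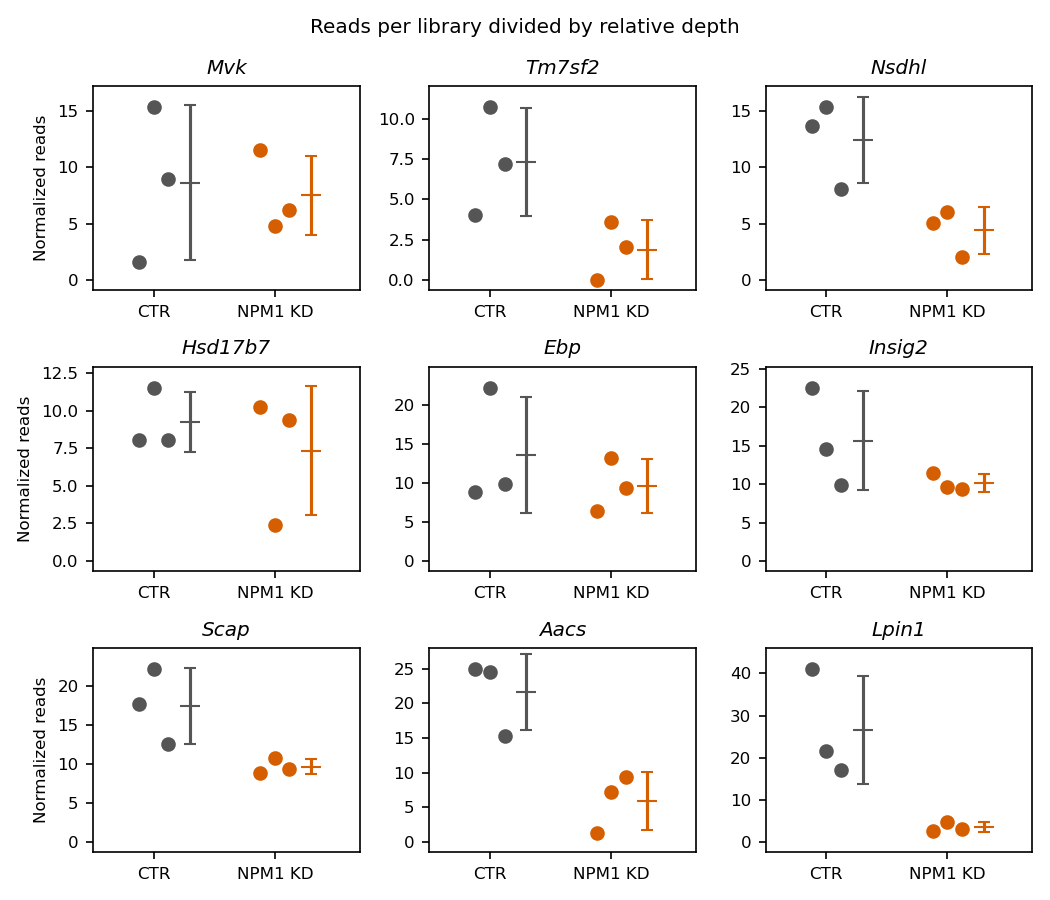
Reads per library divided by the relative depth of the library (normalized reads, linear axes that differ between panels) for the 9 genes with exactly 1 set of reads; points are the 3 libraries of a condition, the bar beside them is the mean ± SD. CTR and NPM1 KD points are apart in *Tm7sf2*, *Nsdhl*, *Scap*, *Aacs* and *Lpin1* and overlap in *Mvk*, *Hsd17b7*, *Ebp* and *Insig2*.

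By reads, 5 of the 9 genes were lower without overlap and 0 higher, where 12.1% of the 5772 genes resolved in this way were lower and 7.99% higher without overlap. The median ratio over these 5772 genes was 0.949. With limma voom on the reads, 1 of the 9 (*Lpin1*) was lower past the threshold, where 0.0347% of the 5772 genes were called lower and 0.0173% higher, a count that tests nothing either. Intervals between libraries rest on few reads here, and reads of PCR-amplified cDNA are not independent molecules.

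For a further 13 cholesterol genes with mean normalized counts up to 60, more than 1 set of reads matched, and the ratio of NPM1 KD over CTR could be given as a range over these sets. This range assumes that the rlog model fitted on genes with means up to 16 also holds for them. *Acat2* had a ratio between 0.191 and 0.252, *Idi1* between 0.220 and 0.269, and *Dhcr7* between 0.253 and 0.433. *Insig1* lay between 0.369 and 0.562, and *Lss* between 0.332 and 0.597. The range of each of these 5 genes thus stayed well below 1.

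Ranges that also stayed below 1 were found for *Stard4* (0.109 to 0.527), *Cyp51* (0.155 to 0.763), *Hmgcs1* (0.229 to 0.721), *Srebf1* (0.183 to 0.828) and *Ggps1* (0.603 to 0.874). For *Sqle* (0.279 to 1.00), *Mvd* (0.307 to 1.20) and *Sc5d* (0.810 to 1.53) the range reached 1 or passed it. On the same rlog step of -1, the ratio of *Acat2* was hence below that of *Insig1* or *Lss* whatever the set. The reads of *Fdps*, *Fdft1*, *Msmo1*, *Pmvk*, *Srebf2* and *Npc2*, which were too many to resolve, are not given.

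**Figure D4:**
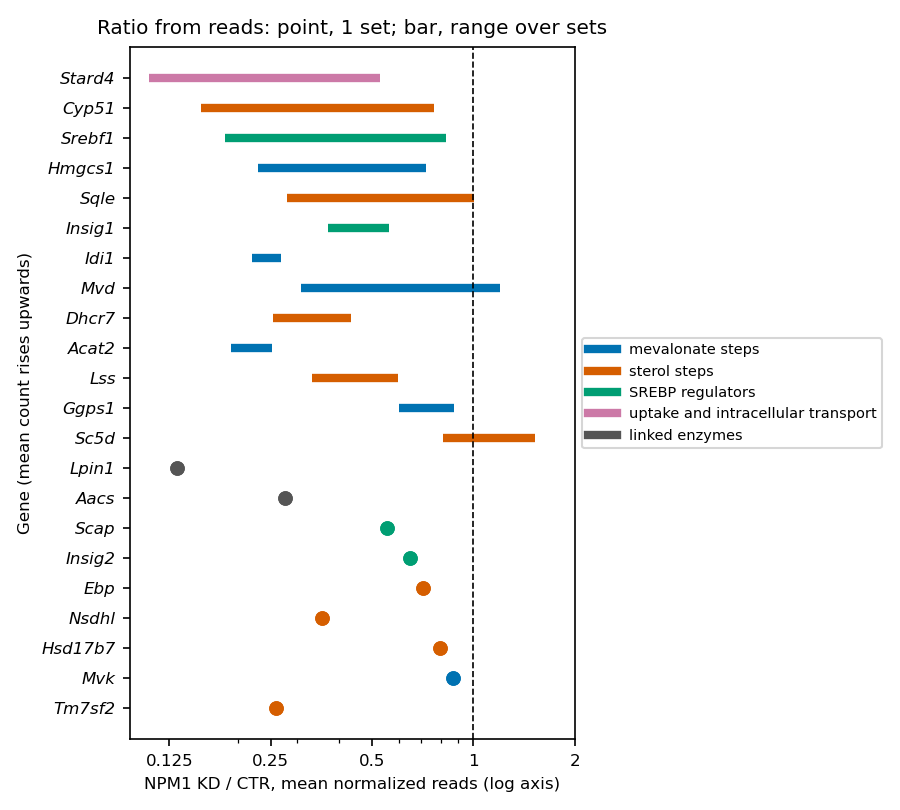
Ratio of the mean normalized reads of NPM1 KD over CTR (log axis) for the 22 genes with few enough reads, ordered by mean normalized count from bottom to top and coloured by role group. Points mark the 9 genes with exactly 1 set of reads and bars the range over all matching sets in the other 13; the dashed line at 1 is equal expression, and the bars of *Sqle*, *Mvd* and *Sc5d* reach it.

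Beside them, 42 further genes of the pathway were looked at. They are those that remained after the genes above had been chosen with their differences known, so the low number of changes among them was partly fixed by that choice. Of the 15 that entered limma's test, 0 passed the threshold in either direction, and the median difference was 0. An unadjusted p below 0.05 was found for 2 of the 15 (1 lower and 1 higher), where 14.1% of all 5752 genes had one, so this number is about that of the background.

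The 2 genes with an unadjusted p below 0.05 were *Acat1* and *Nr1h3*, named after their values had been seen. *Acat1*, a mitochondrial thiolase, was at 6 in the 3 CTR and at 5 in the 3 NPM1 KD libraries, a difference of -1 (SE 0.34, n = 3 per group, adjusted p = 0.0791 from limma). *Nr1h3*, which encodes the sterol sensor LXRα, was the one that stood higher. It was at 3 in the 3 CTR and at 4 in the 3 NPM1 KD libraries (difference 1, SE 0.39, adjusted p = 0.166 from limma). Its reads were 6, 11 and 1 for CTR against 19, 16 and 14 for NPM1 KD, or 4.73 ± 3.78 against 19.3 ± 4.84 normalized reads (SD, n = 3) and a ratio of 4.09, or 6.75 without CTR replicate 2. With limma voom on the reads, *Nr1h3* had a log2 ratio of 2.22 (SE 0.51, adjusted p = 0.0608) and did not pass the threshold either. Adjusted p-values from limma over the alternatives tried ranged from 1.59e-11 to 0.248 for *Acat1* and from 2.44e-09 to 0.388 for *Nr1h3*. Both lowest values came from the fit without a lower limit on the variance, where the rounded values of these genes have no spread within groups. The next lowest was 0.0304 for both genes, from limma without the trend.

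Of the groups of this second list, the other synthesis enzymes had 3 genes in the test with a median difference of -0.33, and the isoprenoid branches, which feed ubiquinone, dolichol and protein prenylation, had 3 with a median of 0. SREBP processing and sterol-regulated degradation, with the protease *Mbtps1* that cuts SREBP (5 in 5 libraries, 4 in NPM1 KD replicate 1), had 5 with a median of 0. Receptors and lipoprotein handling had 1, the HDL receptor *Scarb1*, which was at 6 in all libraries. Sterol sensors and transport had 3 with a median of 0. By reads, 25 genes of the list were resolved. Of these, 3 were lower without overlap (*Mylip*, *Soat1* and *Abca2*) and 2 higher (*Nr1h3* and *Apoe*), shares close to the 12.1% and 7.99% of all resolved genes given above. *Apoe* was apart by very little, with a highest CTR value of 3.59 and a lowest NPM1 KD value of 3.60 normalized reads. Limma voom called 0 of the 25, and 2 (*Nr1h3* and *Nceh1*, both higher) had an unadjusted p below 0.05, where 13.6% of all resolved genes did. *Vldlr* and *Gramd1c* were listed at 0 in all libraries.

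**Figure D5:**
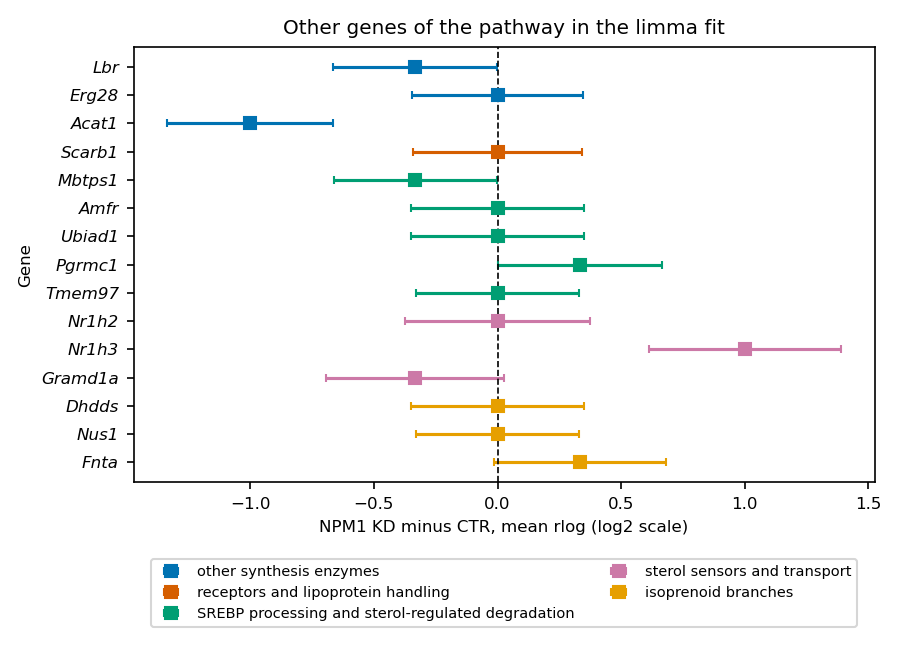
Difference between the mean rlog of the 3 NPM1 KD and the 3 CTR libraries (log2 scale, square) with the standard error from limma (bar) for the 15 other pathway genes in the test, coloured by group. The bars follow the trend over all genes and not the spread of each gene. *Acat1* lies at -1, *Nr1h3* at 1 and the other 13 between -0.33 and 0.33.

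Exons of 11 of the 31 genes share bases with another gene in the GENCODE vM21 annotation, in 9 of them with one on the opposite strand. The longest stretch is that of *Fdps*, which shares 1124 bases with *Gm43738* on its own strand, where counting by strand would not help. *Tm7sf2* shares 532 with *Vps51* and *Srebf1* 66 with *Mir6922*, also on their own strands. On the opposite strand, *Scap* shares 985 bases with *5830462I19Rik*, *Fdft1* 774 with *Ctsb*, *Hmgcs1* 557 with *Gm48342*, *Npc1* 511 with *Rmc1*, *Lss* 381 with *4930483K19Rik*, *Idi1* 323 with *Gm48574*, *Ggps1* 257 with *Arid4b*, *Cyp51* 166 with *Akap9* and *Srebf1* 109 with *Rai1*. The overlapping genes differ in level, with mean normalized counts from 0 for *4930483K19Rik* to 100.88 for *Ctsb*, and none listed for *Gm43738*. Whether strand was used in counting is not given in the sources used here, so reads from such stretches cannot be told apart.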

How the data were processed

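RNA of N2a cells 72 h after transfection was sequenced as long reads of PCR-barcoded cDNA on a nanopore instrument, with 3 CTR and 3 NPM1 KD libraries. Per the submitters' processing notes, minimap2, featureCounts and DESeq2 were used, with genome build GRCm39 and no versions or settings. The paper does not describe this RNA-seq.

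The authors deposited rlog values (a log2-scale score for each library and gene, rounded to whole numbers outside -1 to 1) and, in a second table, the mean normalized count of each gene over the 6 libraries, also treated as a score. That table also holds the authors' own fold changes, standard errors, statistics and p-values, none of which were used. Of 26913 rows, 257 repeat a gene ID under another symbol and were left out, which leaves 26656 genes; 11880 of them have no reads. The mean normalized counts sum to 841220.

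For the 5752 genes whose mean rlog reached log2 of 10, limma 3.58.1 (R 4.3.3; lmFit, eBayes with trend) was run two-sided, with Benjamini-Hochberg adjustment. Variances within groups were not allowed below 0.0833, the variance that rounding adds. The moderated variances followed the trend with the mean rlog. *Acat2*, without spread within groups, and *Acads*, with spread and the same mean rlog, both had a standard error of 0.331. The cholesterol genes and all lists were chosen with earlier results of these data known. Values per library were to be given for cholesterol genes past the threshold or without overlap, and the others by range, count or reads. Beyond this plan, rlog values per library were also given for some genes that overlapped, such as *Sqle*, *Msmo1*, *Npc2*, *Srebf2* and *Aacs*. Of the 42 other pathway genes, those past the threshold were to be named. Some genes of the pathway and marker lists are not reported here and were left out of the lists' counts, though not of the fit.

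Reads were recovered as follows. The 6 commonest low means, those of 1272 genes, are worth 1 read in 1 library each. With these weights, 2379 of 2379 distinct means below 3 could be written as whole reads in exactly 1 way, within the rounding of the file. Each weight was assigned to a named library by its rlog values (r from 0.9981 to 0.9992 over 1933 genes). Exactly 1 set was found for 6545 of 6546 genes with means of 0.5 to 10, and for 1434 of 1555 (92.2%) with means of 10 to 16, after sets whose modelled rlog was over 0.1 from the deposited one had been dropped. Genes with means from 2 to 16 (5772) were tested with limma voom. The ranges for means up to 60 were added after the data had been seen. The SDs and the voom fit on reads hold the spread between the 3 libraries of a condition, and counting error is part of it. Alternatives were no variance floor, no trend, other filters, leaving out each library and a replicate block. Promoter windows are from RefSeq.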

Additional observations from a re-analysis of the deposited data

How the results depend on the processing

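*Npm1* kept its direction and stayed past the threshold in every alternative that could be run for it, with a difference of -2 also when each library was left out. It has too many reads for the fit on reads. The number of cholesterol genes called lower was 2 as reported, where 0.417% of all genes were called lower. It was 8 without the variance floor (3.09% of all genes), 11 without the trend (3.79%) and 1 with a mean rlog of at least log2 of 20 (0.601%). It was 0 without a filter (0.0677%) and 1 with voom on reads (0.0347%, a different set of genes). When each of the 6 libraries was left out it was from 0 to 0, where 0.0869% to 0.156% of all genes were called lower. No cholesterol gene was called higher in any of these. Other pathway genes called lower numbered 0 as reported, 1 without the variance floor and 1 without the trend, and those called higher 0 as reported and 1 in either of these, where 2.14% and 2.29% of all genes were called higher. The cause of these moves was not tested beyond the smaller number of libraries or the other genes tested. Groups that did not overlap numbered 11 as reported, where 3.41% of all genes were separated with lower and 2.19% with higher values. The number was from 11 to 14 when each library was left out. Groups that are apart stay apart with fewer libraries, so it can only stay or rise, and the share of all genes was not computed there. With normalized reads in place of rlog it was 5 of the 9 genes resolved, where 12.1% of all resolved genes were lower and 7.99% higher without overlap. That alternative was chosen after the data had been seen.

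With the replicate number as a replicate block, 0 cholesterol genes and 0 other pathway genes were called and *Npm1* was at -2. In this fit, 0.122% of all genes were called lower and 0.0174% higher. Whether the numbers pair the libraries is not known. The deviations of same-numbered libraries from their group means correlated at 0.009, 0.001 and 0.03. As the rounded values often coincide within groups, these correlations cannot decide it. Rounding to whole values and the low depth limit what 1 library can show.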
